A study of Mus musculus with 6 samples.

Results

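The genes described here are the prolactin receptor Prlr, the kinases Jak1 and Jak2, the transcription factors Stat3, Stat5a, Stat5b and Stat6, and the feedback inhibitors Cish, Socs2 and Socs3. They were taken by gene symbol, and all 10 were found, each on a single row, among 22001 distinct symbols on rows naming 1 gene. All 10 had a mean of 1 FPKM or more, as did 10770 of the 22001 symbols.

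The samples are epithelial cells enriched from mammary tumors of 7-week-old female FVBN mice that express the polyoma middle T oncogene (PyMT). There were 3 libraries with the label PyMT control and another 3 with the label PyMT Elp3 cKO, the latter from PyMT mice in which Elp3, the catalytic subunit of the Elongator complex, is deleted with an MMTV-driven Cre. The MMTV promoter is active in mammary epithelium and also in some other glands, the salivary gland among them. Each library is labelled as a different mouse, and tumors were matched for size.

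The study set the 2 genotypes against each other, but the deposited values do not allow that comparison. Control and Elp3 cKO columns of the same number were equal in 24308 of 24308 rows, with 0 rows differing for each of the 3 numbers. The table thus holds 3 distinct profiles, each under both labels, called profiles 1, 2 and 3 after their replicate number. No profile was assigned to a genotype, no genotype test was run, and each profile was counted once. Elp3 itself stood at 15.6, 17.9 and 19.0 FPKM. Values are FPKM, fragments scaled to transcript length and library size, so the levels of different genes can be set side by side. Depth cannot be read from FPKM, and the number of profiles limits the precision.

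Prolactin binds its receptor on mammary epithelium and switches on JAK2, which is bound to the receptor tail. JAK2 phosphorylates STAT5A and STAT5B, which enter the nucleus and drive milk protein genes and alveolar growth. STAT5 also induces Cish and Socs2, whose products bind the receptor complex and damp the signal. STAT3 is switched on by the LIF and IL-6 family of cytokines, induces Socs3 and acts in involution after weaning, and STAT6 answers IL-4 and IL-13.

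STAT dimers bind the palindrome TTCNNNGAA, which reads alike on both strands. RefSeq windows (GRCm38.p6) of 250 bases before to 50 after an annotated start were found for 9 of the 10 genes, 13 windows in all, and Socs2 had none. The palindrome was in 3 of the 13 windows, those of Cish, Socs3 and Prlr, and in 8.3% of all 32851 windows. The Cish window held 2 copies, and 0.457% of all windows held 2 or more. STAT6 prefers a wider spacing, TTCNNNNGAA, which was in 0 of the 13 windows and in 6.95% of all. The stretches that hold the palindrome are shown because they mark which of the 10 genes carry it near a start, with the palindrome in capitals.
Cish, chr9:107296654-107296683, plus strand: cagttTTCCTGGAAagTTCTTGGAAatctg
Socs3, chr11:117969501-117969530, minus strand: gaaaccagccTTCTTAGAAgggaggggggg
Prlr, chr15:10223786-10223815, plus strand: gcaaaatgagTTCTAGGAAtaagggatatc
The first Cish copy begins at the annotated start itself and the second 11 bases further on, so both lie after that start. The Cish stretch overlaps a GENCODE exon of Cish, and the GENCODE gene starts earlier, at 107296026. The Socs3 copy begins 154 bases before its RefSeq start, and the Prlr copy 110 bases before the middle of 3 annotated Prlr starts. The Socs3 stretch lies inside the GENCODE gene, which spans 117966079 to 117970047 on the minus strand, and outside its exons. The bases just after these Socs3 and Prlr starts matched no GENCODE transcript of the gene. Which Cish, Socs3 or Prlr start these cells use was not tested, and a match of letters does not show that a STAT binds there.

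Prlr was the least abundant of the 10 genes. It stood at 2.30, 4.36 and 4.32 FPKM in profiles 1, 2 and 3. Profile 1 was the low one, and profile 2 was 1.90 times as high, the widest ratio between the highest and lowest profile among the 10 genes. Its row covers chromosome 15, 10177238 to 10349180 (mm10), the same span as the GENCODE gene on the plus strand. Prlr shares 203 exonic bases, 1.32% of its own, with Gm21973 on the same strand, and reads from them cannot be told apart. Growth hormone receptor, Ghr, a receptor of the same class that also works through JAK2, stood at 9.83, 10.4 and 12.7 FPKM, between 2.39 and 4.27 times the Prlr level of the same profile. The genes for the hormones themselves, Prl and Gh, which the pituitary makes, were listed at 0 in all 3 profiles.

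**Figure D1:**
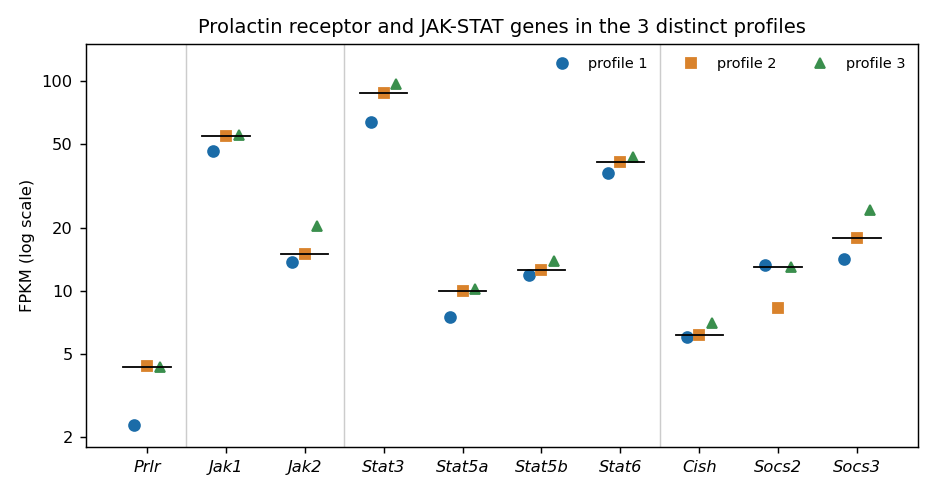
Level of each gene (FPKM, log scale) in profile 1 (circles), profile 2 (squares) and profile 3 (triangles), with a line at the median; vertical lines part the receptor, kinases, STATs and feedback inhibitors. Stat3 lies highest, at 63.7 to 96.9 FPKM, and Prlr lowest, at 2.30 to 4.36, and profile 1 is the lowest point for every gene but Socs2.

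Jak1, the kinase of interferon, gp130 and IL-4 receptors, was the more abundant kinase. Jak1 stood at 46.3, 54.8 and 55.3 FPKM in profiles 1, 2 and 3, and profiles 2 and 3 were close together. Jak2, the kinase of prolactin and growth hormone receptors, stood at 13.7, 15.0 and 20.4 FPKM, and here profile 3 was apart from the other two. The Jak1 level was 2.72 to 3.66 times the Jak2 level within a profile. Jak2 in turn stood at 5.97, 3.43 and 4.71 times the level of Prlr in profiles 1, 2 and 3. Tyk2, the kinase paired with interferon and IL-10 family receptors, stood at 10.9, 12.2 and 11.1 FPKM. Jak3 shares a row with Insl3, so its level was not resolved. Of the summed FPKM of Jak1, Jak2 and Tyk2, Jak1 took 63.7 to 66.9%, Jak2 18.3 to 23.5% and Tyk2 12.8 to 15.3%.

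Stat3 was the most abundant of the 10 genes. It stood at 63.7, 88.0 and 96.9 FPKM, with profile 1 well below the others and profile 3 at 1.52 times profile 1. Stat6 stood at 36.2, 41.1 and 43.2 FPKM, a narrower set of values with the same profile lowest. The STAT5 genes were lower. Stat5b stood at 11.9, 12.6 and 13.9 FPKM and Stat5a at 7.49, 9.92 and 10.1. Stat5b was above Stat5a in all 3 profiles, and their ranges did not overlap. The ratio of Stat5a to Stat5b was 0.631, 0.787 and 0.729. Stat3 was 3.29 to 4.03 times the sum of the STAT5 pair.

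Over the 6 STAT genes reported here, Stat3 took 49.0 to 54.5% of summed FPKM, Stat6 24.3 to 27.9%, Stat5b 7.62 to 9.13% and Stat5a 5.71 to 6.001%. Stat2, a STAT of the type I interferon response, stood at 10.7, 13.7 and 13.5 FPKM, and Stat4, a STAT of lymphocytes, at 0, 0.0204 and 0.0526. The sum over these 6 genes was 130.1 FPKM in profile 1, the lowest, against 165 and 178 in the others.

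**Figure D2:**
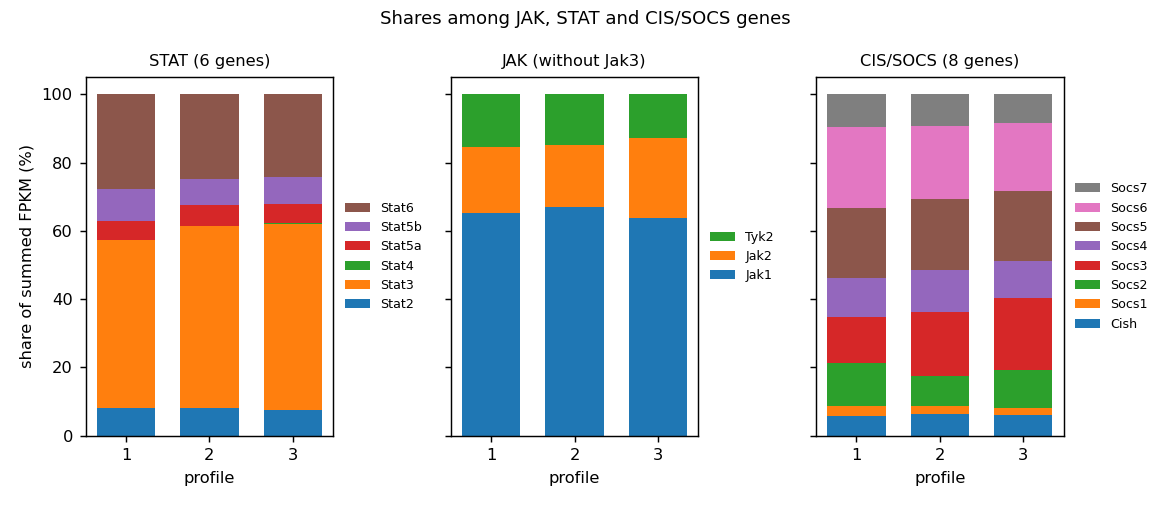
Share of summed FPKM (%) taken by each of 6 STAT, 3 JAK and 8 CIS/SOCS genes in each profile; Jak3 is left out because its row also names Insl3. Stat3 takes 49.0 to 54.5% of the 6 STATs and Jak1 63.7 to 66.9% of the 3 kinases, while Socs3 goes from 13.5% in profile 1 to 21.0% in profile 3.

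Stat5b, Stat5a and Stat3 lie side by side on chromosome 11, at 100780731 to 100850639, 100859351 to 100885192 and 100886810 to 100939511. The Stat5b and Stat5a rows are 8711 bases apart, and those of Stat5a and Stat3 1617 bases. Stat5a and Stat5b are closely related genes, so the sequence they share was counted. Of the stretches of 100 bases in GENCODE Stat5a transcripts, 3.44% also occur in Stat5b transcripts, and 4.79% of those of Stat5b occur in Stat5a. For stretches of 25 bases the shares were 12.98% and 17.02%. No source read here says how the authors placed reads from such stretches, so the part of the STAT5 levels that rests on shared stretches is uncertain. In GENCODE, Stat5a and Stat3 share 72 exonic bases on opposite strands, 1.01% of the Stat5a exons, although their deposited rows do not overlap. The libraries are not described as stranded. Stat6 shares 40 exonic bases with Nab2 on the opposite strand, and Jak1 shares 4 with Raver2. The Stat6 and Nab2 rows cover the same span, 127642001 to 127666703 on chromosome 10, and Nab2 stood at 12.7, 17.1 and 16.0 FPKM. The Jak1 and Raver2 rows also cover 1 span, 101069038 to 101265282 on chromosome 4, and Raver2 stood at 0.410, 0.285 and 0.348 FPKM. How reads within these spans were parted between the genes is not given.

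Cish, a classic STAT5 target among the feedback inhibitors, was low. It stood at 6.01, 6.18 and 7.02 FPKM, the set with the smallest ratio of highest to lowest level among the 10 genes, 1.17. On the opposite strand, the antisense transcript Gm17041 and the transcribed pseudogene Gm17040 cover 7.46% and 4.07% of its GENCODE exonic bases. Reads from such shared bases cannot be told apart from Cish reads here. The Cish row covers chromosome 9, 107296689 to 107301964, less than the GENCODE gene at 107296026 to 107302784. Which of the shared bases lie inside the row was not checked.

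Socs2, which restrains growth hormone signalling, departed from the other genes. Its levels were 13.2, 8.27 and 12.9 FPKM, so profile 2 was the low one and profiles 1 and 3 were close. Socs2 and Cish, both STAT5 targets, stood in a ratio of 2.20, 1.34 and 1.84. Socs3, which blocks gp130 signalling and is induced by STAT3, stood at 14.2, 17.8 and 24.2 FPKM, each profile apart from the next. Profile 3 was 1.70 times profile 1 for Socs3, and the ratio of Socs3 to Cish went from 2.37 in profile 1 to 2.88 in profile 2 and 3.45 in profile 3.

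Within the 8 CIS/SOCS genes, Socs3 took 13.5, 18.7 and 21.0% of summed FPKM and Cish 5.69 to 6.50%. Socs6 and Socs5, which act on receptor tyrosine kinases as well, took 19.8 to 23.7% and 20.3 to 21.0%. Socs1, the inhibitor of interferon signalling, was the least abundant, at 3.21, 2.101 and 2.27 FPKM.

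Set in order by median level, the genes ran Stat3, Jak1, Stat6, Socs3, Jak2, Socs2, Stat5b, Stat5a, Cish and Prlr. Of the 9 neighbouring pairs, 7 had ranges over the profiles that did not overlap. Socs3 and Jak2 overlapped, although Socs3 was the higher of the pair in all 3 profiles. Socs2 and Stat5b overlapped and changed places, Socs2 being higher in 1 profile of the 3. Among all genes at a mean of 1 FPKM or more, Stat3 was at the 91.3 percentile by mean level, Stat5b at 50.5, Cish at 30.6 and Prlr at 18.6.

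Profile 1 was the lowest for 9 of the 10 genes, all but Socs2, and for 40.1% of the 10770 genes at a mean of 1 FPKM or more. Under quantile normalization the count was 8 of 10, Cish then being lowest in profile 2, beside 33.9% of all genes. Profile 3 was the highest for 8 of the 10, against 36.5% of all genes, and for 7 under quantile normalization, beside 31.8%, where Jak1 was highest in profile 2. Under upper-quartile scaling it was the highest for 6, beside 30.1%, Jak1 and Stat5a being highest in profile 2. The highest profile was at least 1.5 times the lowest for 4 of the 10 genes, Prlr, Stat3, Socs2 and Socs3, against 18.5% of all genes. That count was 3 under median-ratio and under upper-quartile scaling, beside 18.6% and 18.5% of all genes, and Stat3 there fell below 1.5 times. It was 1 without profile 1 and 2 without profile 3. Leaving out a profile cannot widen a span, and the share of all genes was not computed for these counts. The median ratio of profile 3 to profile 1 was 1.27 over the 10 genes and 1.01 over all. With 1 library a profile there is no replicate error for these differences, and the genes of a pathway are not independent counts.

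**Figure D3:**
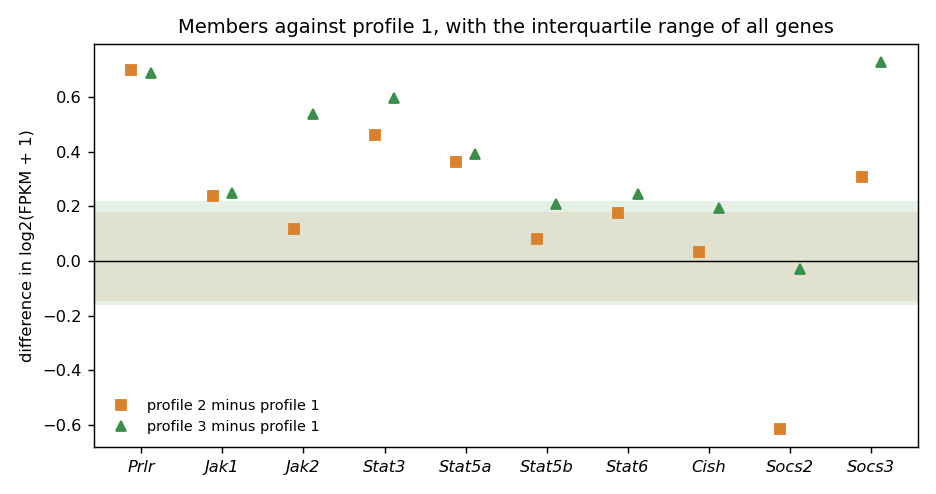
Difference in log2(FPKM + 1) from profile 1 for profile 2 (squares) and profile 3 (triangles), per gene; shaded bands give the interquartile range over all genes at a mean of 1 FPKM or more, -0.15 to 0.18 for profile 2 and -0.16 to 0.22 for profile 3. Prlr, Jak1, Stat3, Stat5a and Socs3 lie above the bands in both profiles, and Socs2 lies below in profile 2.

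Markers of other cell types and of salivary gland also varied between the profiles. All 6 fibroblast markers were lowest in profile 1, beside 40.1% of all genes, and their summed level was 70.8, 149 and 245 FPKM. Of the basal markers, 4 of 6 were lowest in profile 1, while Krt14 and Trp63 were lowest in profile 3. The basal sums were 324, 445 and 375 FPKM. Endothelial markers were lowest in profile 3, beside 31.5% of all genes, with sums of 25.8, 27.3 and 12.0 FPKM. The 5 salivary markers summed to 1.01, 0.682 and 868 FPKM. Luminal markers, led by Krt18 and Krt8, summed to 8853, 9680 and 9743 FPKM, which matches the label of epithelial cells. The other lists were low: the 5 measured myeloid markers summed to 2.81 to 5.01 FPKM with the pan-leukocyte Ptprc at most 0.0969, the 5 adipocyte markers to 3.02 to 5.28, and the 4 lymphocyte markers reported to 0.461 to 0.475, with Cd3g at 0 in all profiles. The part of these cells in the lower levels of profile 1 or the higher levels of profile 3 was not tested. In bulk RNA, fewer cells of a type and less RNA per cell cannot be told apart.

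Of 26 measured receptors that use JAKs, Prlr included, 15 had a mean of 1 FPKM or more, beside 10770 of all 22001 symbols. Of the 15, 10 were lowest in profile 1, beside 40.1% of all genes, and 9 highest in profile 3, beside 36.5%. Il6st, the gp130 chain shared by IL-6, LIF and oncostatin M receptors, stood at 34.7, 33.1 and 34.7 FPKM. Ifnar2 and Ifngr2, chains of the interferon receptors, stood at 26.5, 33.5 and 40.8 FPKM and at 30.7, 28.0 and 36.0 FPKM. By median level Prlr came below 12 of the other 14 expressed receptors, above Lifr and Il6ra. Lifr, the ligand-binding chain for LIF, stood at 2.63, 3.99 and 3.88 FPKM, close to Prlr in each profile.

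**Figure D4:**
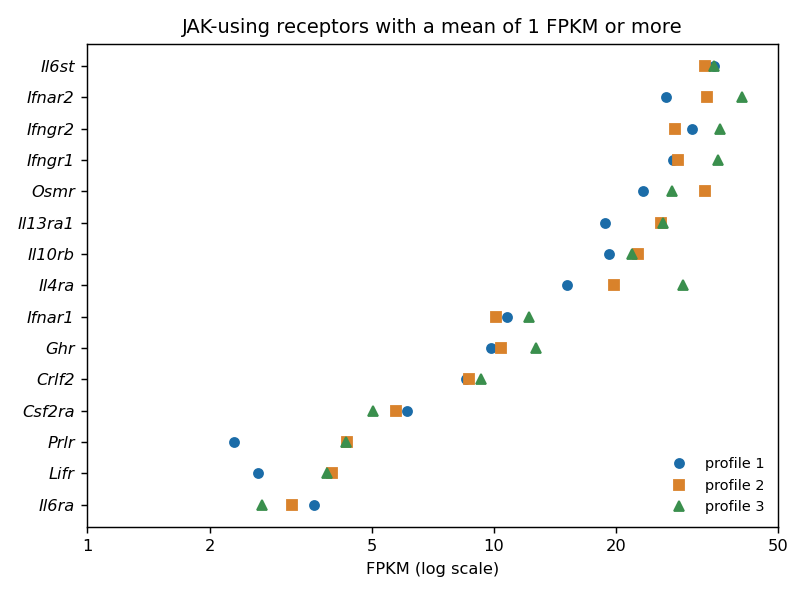
Level (FPKM, log scale) of the 15 JAK-using receptors with a mean of 1 FPKM or more, ordered by median, in profiles 1 (circles), 2 (squares) and 3 (triangles). Il6st and 3 interferon receptor chains lie at the high end, and Prlr, at 2.30 to 4.36 FPKM, lies at the low end with Lifr and Il6ra.

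Ligands of gp130 receptors led the list of cytokines and hormones. Of 22 measured ligands, 9 had a mean of 1 FPKM or more, beside 10770 of all 22001 symbols. Of the 9, 6 spanned at least 1.5 times between profiles, beside 18.5% of all genes. Clcf1, a gp130 family cytokine, stood at 35.0, 47.5 and 29.5 FPKM, and Lif at 33.3, 29.8 and 46.4. Csf3, the granulocyte growth factor, stood at 23.3, 19.9 and 39.4 FPKM. Il6 stood at 5.13, 8.30 and 17.1 FPKM and Il11 at 1.76, 2.99 and 5.37. Both were lowest in profile 1 and highest in profile 3, like Stat3 and Socs3, as were 23.9% of all genes. They were the only 2 of the 9 ligands lowest in profile 1, beside 40.1% of all genes. Clcf1, Lif and Csf3, at higher levels, did not have that order, and a link to Stat3 or Socs3 was not tested. The ligands Prl, Gh, Epo, Il22 and Ifng were listed at 0 in all profiles.

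On the IL-4 side, Il4ra and Il13ra1, which together form the receptor that STAT6 follows in epithelium, stood at 15.1, 19.8 and 29.2 FPKM and at 18.8, 25.7 and 26.1. Il4 reached at most 0.116 FPKM and Il13 at most 0.0504. Of the 9 measured genes of that list, 5 had a mean of 1 FPKM or more, beside 10770 of all 22001 symbols. Highest by mean besides Il13ra1 were Arg1, an arginase, at 74.0, 98.2 and 68.4 FPKM, and Gata3, the luminal transcription factor, at 36.3, 40.0 and 39.3.

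The listed phosphatases, PIAS proteins, adaptors and other SOCS genes numbered 16. All had a mean of 1 FPKM or more, beside 10770 of all 22001 symbols. Of the 16, 1, Socs1, spanned 1.5 times or more between profiles, beside 18.5% of all genes. Many are known to restrain the pathway, but Sh2b1, an adaptor that activates JAK2, and Ptpn11, a phosphatase, can also promote signalling. Ptpn2, a phosphatase of JAKs and STATs, stood at 41.0, 42.3 and 49.6 FPKM, Ptpn11, the gene of SHP-2, at 39.7, 38.7 and 40.7, and Sh2b1, an adaptor that binds JAK2, at 38.1, 38.2 and 35.0.

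Of the 18 measured genes known as output of prolactin and STAT5, 16 had a mean of 1 FPKM or more. That stands beside 10770 of all 22001 symbols. Of the 16, 6 were lowest in profile 1, near the 40.1% of all genes, and 9 in profile 2, beside 28.3% of all. In profile 3, 11 were highest, beside 36.5%. The milk proteins with the highest means were Csn3 at 1363, 1145 and 2415 FPKM, Csn2 at 428, 115 and 1025, and Csn1s1 at 339, 158 and 817. Profile 2 was thus the low one for these caseins while it held Prlr at 4.36 FPKM, close to profile 3. Elf5, the alveolar transcription factor that acts with STAT5, stood at 48.9, 50.8 and 58.6 FPKM. All 16 STAT3 output and involution genes had a mean of 1 FPKM or more, beside 10770 of all 22001 symbols. Of these 16, 7 were lowest in profile 1, near the 40.1% of all genes. Another 7 were lowest in profile 2, beside 28.3%, and 8 were highest in profile 3, beside 36.5%. Lcn2, an iron-siderophore binder, stood at 2913, 3439 and 4169 FPKM, the lysosomal protease Ctsl at 292, 322 and 336, and Vegfa at 201, 254 and 240.

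Among 75 other genes of these lists with a mean of 1 FPKM or more, likeness was measured as the root-mean-square distance between log2(FPKM + 1) values, each centred on its own mean, over the 3 profiles. Closest to Prlr were Xdh, a milk fat globule enzyme (0.097), Pik3r1 (0.11) and Bcl6 (0.11). For Cish they were Pias4 (0.017), Pim1 (0.022) and Elf5 (0.026), and for Socs3 they were Ifnar2 (0.064), Il4ra (0.073) and Lcn2 (0.088). With 3 points this likeness is common: 203, 287 and 237 of 10769 genes lay as close to Prlr, Cish and Socs3 as the last gene named for each.

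The deposited table has another column, with a header that speaks of a total, that belongs to no sample. For Prlr and Stat5a this authors' summary lay far above every profile. The authors' summary was 10.95 FPKM for Prlr, 2.51 times its highest profile, and 21.0 FPKM for Stat5a, 2.07 times its highest. It was also above the highest profile for Jak2, at 23.1 FPKM, Stat5b, at 15.9, and Socs3, at 24.5, by 1.13, 1.14 and 1.01 times. Those 5 of 10 stand beside 15.6% of all genes, and the 2 of 10 at 1.5 times the highest profile or more stand beside 1.57%. At 2 times or more the share of all genes was 0.622%. By the ratio of the authors' summary to the mean of the profiles, Prlr ranked 48 and Stat5a 93 of 10770 genes.

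For the other 5 genes the authors' summary lay within or below the profiles' upper end. It was 52.1 FPKM for Jak1, 90.7 for Stat3, 42.1 for Stat6, 6.61 for Cish and 9.81 for Socs2, the last being 0.744 times the highest profile. The authors' summary was 351 FPKM for Csn2, 0.342 times its highest profile.

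A summary above every profile cannot be a mean of the profiles alone. Times 9, the summary ended at 4 decimals in 91.4% of 5957 rows, and in no more than 30.3% with each other whole multiplier between 2 and 12. If it is a mean of 9 values in which each profile is entered under both labels, the 3 values left over average 25.5 FPKM for Prlr, 44.7 for Stat5a, 36.6 for Jak2, 35.9 for Socs3 and 22.1 for Stat5b. On the same reading they average 106 FPKM for Stat3, 52.1 for Jak1, 45.9 for Stat6, 7.02 for Cish, 6.52 for Socs2 and 19.4 for Elp3. Nothing read here gives the genotype, tissue or spread of those values, so they enter no comparison. Markers of other cells stood apart in the same column. The authors' summary was above the highest profile for 5 of 6 basal markers, among them Acta2 at 183 FPKM against at most 74.0 and Oxtr at 9.07 against at most 2.67, and for 3 of 4 endothelial markers with a mean of 1 FPKM or more. It was so for 1 of 5 luminal, 0 of 6 fibroblast and 0 of 5 salivary markers. These counts stand beside 15.6% of all genes. The part of these cells in the values for Prlr and Stat5a was not tested.

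**Figure D5:**
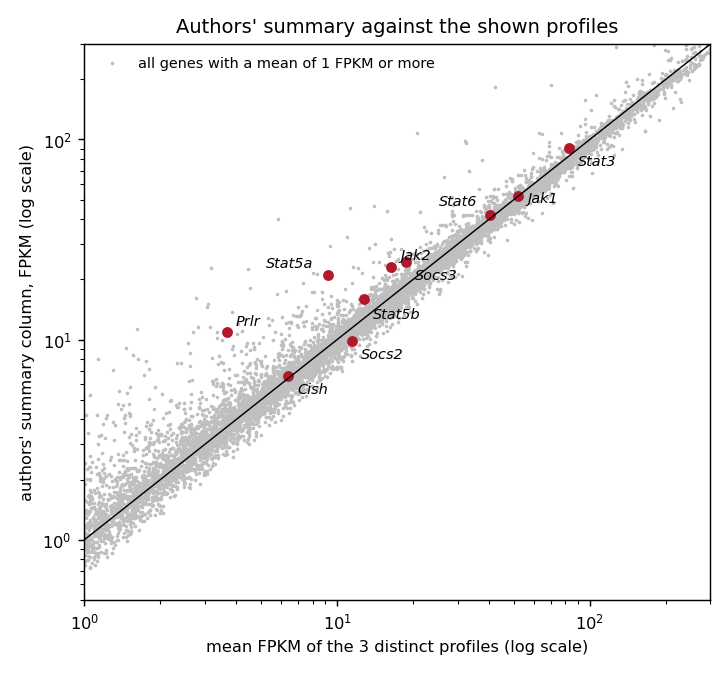
The authors' summary column (FPKM, log scale) against the mean of the 3 profiles (FPKM, log scale) for all genes at a mean of 1 FPKM or more (grey) and the 10 genes described (red); the line marks equality, and the axes stop above the most abundant of the 10. Prlr, at 10.95 against a mean of 3.66 FPKM, and Stat5a, at 21.0 against 9.18, lie well above the line.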

How the data were processed

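PolyA RNA of enriched tumor epithelial cells was sequenced on a HiSeq2000, per the labels' protocols. The authors deposited 1 table of FPKM per gene, per the file headers, with 6 sample columns and their own summary column. The submitters' processing notes name the mm10 build, Cuffdiff, Cufflinks 2.1.1 and TopHat2 2.0.9. Annotation, filters, depth and scaling between libraries are not given in sources used here. Scaling by the authors could shift all genes of a profile together, so 3 other scalings were tried.

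A linear model of log2(FPKM + 1) between genotypes was planned only in case same-numbered columns differed. They were identical, so no test was run and values are descriptions. Each sample column was matched to its sample through the name, which left 0 columns over besides the summary. Rows without a symbol (1366) or naming several genes (514) were left out of gene counts; for the 318 symbols on more than 1 row the row with the highest mean was used. Starts are as deposited, raised by 1. The background is the 10770 genes at a mean of 1 FPKM or more. Exons and transcripts are from GENCODE M21 (GRCm38), the assembly also called mm10.

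The members, gene lists and rules were chosen with earlier results of these data known. Named genes are the 10 members, Elp3, the 3 with the highest mean in each list, the other JAKs and STATs, and the nearest genes by likeness; some genes of these lists are not reported here. Ghr, Lifr, Il4ra, Il6, Il11, Elf5, Socs1, Socs5, Socs6 and the marker genes were named after their values were seen. Salivary markers were listed because earlier results showed them in profile 3. The arithmetic and the scaling were tested on simulated data. Python 3.11.15, pandas 2.3.3, numpy 2.4.6 and matplotlib 3.10.9 were used.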

Additional observations from a re-analysis of the deposited data

Results flagged for a closer look

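Prlr and Stat5a stood out in the column that belongs to no sample. The authors' summary for Prlr was 10.95 FPKM, while its profiles reached at most 4.36. The authors' summary for Stat5a was 21.0 FPKM, while its profiles reached at most 10.1. Of 10770 genes, 169 had a summary 1.5 times their highest profile or more. No group holds 4 or more distinct samples, so samples far from the rest of a group were not looked for, and no effect was compared between groups.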

How the results depend on the processing

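No paired analysis was possible because the control and Elp3 cKO columns of a number hold equal values, which leaves no paired difference. The replicate block and the other pseudocount planned for the genotype test were not run for that reason. All 30 median levels recomputed under 3 other scalings moved by less than 1 SD of the profiles, and so did all 50 recomputed spans (3 scalings, pseudocounts 0.1 and 0.01). Leaving out a replicate number cannot move a median of 3 values by 1 SD, and each symbol is on 1 row, so those alternatives say nothing of stability. No scaling shifted the median gene by more than 0.0278 on the log2 scale. Counts moved more. Genes highest in profile 2 numbered 1, but 2 under quantile normalization and 3 under upper-quartile scaling. The 4 genes spanning 1.5 times or more became 1 to 3 when each replicate number was left out in turn, with no share of all genes computed beside them. They became 3 under median-ratio and upper-quartile scaling, beside 18.6% and 18.5% of all genes. The share of all genes with that span was 11.9% at a minimum mean of 5 FPKM and 29.4% at 0.1 FPKM. With any excess of the authors' summary over the highest profile counted, a bound added after seeing the data, 5 genes passed in place of 2. Profile 1 was the lowest for 9 of 10 genes without replicate 2 and without replicate 3, whose profile holds the salivary genes, a count that leaving out another profile cannot lower. FPKM gives no counts, so depth sets no interval, and low genes such as Stat4 or Il4 cannot be called absent.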

Other observations

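The genes named here were picked after their values were seen. Lifr, the LIF receptor chain, had an authors' summary of 6.09 FPKM, 1.53 times its highest profile. Krt5, a basal keratin, had 186 FPKM against at most 78.7. Tnfsf11, which encodes RANKL, was listed at 0, 0 and 0.0478 FPKM in the profiles and at 0.132 in the authors' summary. Glycam1, a prolactin-responsive milk mucin, stood at 2.18, 0.650 and 50.4 FPKM in profiles 1, 2 and 3, the widest ratio among the listed output genes above 0 in all profiles. Rows naming several genes hold further pathway members that were not resolved: the row of Jak3 and Insl3 stood at 4.64, 5.55 and 4.85 FPKM, and the row of Galt and Il11ra1 at 6.97, 9.85 and 8.55.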
